A study of Felis catus with 6 samples.

Results

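A set of 8 genes of leukocyte and epithelial signaling was followed in the oral mucosa of cats with feline chronic gingivostomatitis (FCGS), an inflammatory disease of the oral mucosa. Of these 8 genes, of 21529 identifiers measured, 5 are grouped as leukocyte genes: VAV1 (ENSFCAG00000005052), INPP5D (ENSFCAG00000011321), PTPN6 (ENSFCAG00000004287), GNAI2 (ENSFCAG00000007008) and ARPC1B (ENSFCAG00000015066). The other 3, VAV3, RAC1 and PLCB3, act in related signaling steps but are also used by epithelia and many other cells. Of these, only VAV3 belongs to the same gene family as one of the 5, VAV1. The genes were picked from those whose mean level differed at least 2-fold between lesions and healthy mucosa in these same libraries, the 5 upward and the 3 downward, so each difference between the tissues is given as a description and supports nothing further. RAC1 lay nearest to this limit, at 2.03-fold lower in lesions, and the genes just outside it carry no name here.

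The 2 groups were FCGS lesions (3 libraries) and healthy mucosa (3 libraries), 1 biopsy of each from the cats Bart, Jerome and Sadie. Healthy mucosa lay next to the inflamed tissue of the same animals, so no library came from a cat without FCGS. Per the study the cats had no teeth, received buprenorphine and no immunosuppressive therapy or antibiotics at the time of collection, and were negative for FIV and FeLV; the ages of the 3 sequenced cats were not found in the texts used. The labels call the tissue gingival, whereas the series' design text places the biopsies beside the palatoglossal folds and describes them as full-thickness, so each holds epithelium and the tissue beneath it.

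Levels are in FPKM, in which the fragments of a gene are divided by transcript length and by library size, so that genes can be set side by side within a library. FPKM summed to between 1382122 and 1903773 per library. The study states an approximate depth for all samples together, and the tables do not hold reads per library. From the steps between the smallest values, 1 read was worth 0.581 to 0.886 times as much FPKM in the other libraries as in the lesion of Sadie, if values were scaled by reads alone. In the biopsies, named leukocyte markers were present in every library, with a summed level of 679 to 748 FPKM for 7 of 10 listed genes in lesions and 90.9 to 279 FPKM in healthy mucosa. Of 26 listed epithelial markers only KRT4, a keratin of the upper oral epithelium, carries a name, with lesion levels of 8.99 (Bart), 2534 (Jerome) and 569 FPKM (Sadie) and healthy levels of 2089, 0 and 0 FPKM in the same order of cats. The epithelial side of the contrast could therefore not be checked against its markers, and VAV3, RAC1 and PLCB3 are called the broader genes below. Skeletal muscle markers summed to 3286 FPKM (lesion of Jerome), 2808 FPKM (lesion of Sadie) and 1467 FPKM (Sadie, healthy), against at most 16.4 FPKM in each other library. Their part in the levels below was not tested.

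As background, cells of the immune system relay signals from antigen, Fc and chemokine receptors to the actin cytoskeleton with proteins that exist in several closely related versions, or paralogs. VAV proteins are exchange factors that load Rac GTPases with GTP. Rac then activates the WAVE complex, which turns on the Arp2/3 complex, and Arp2/3 starts branched actin filaments at the edge of the cell. SHIP1 (INPP5D) and SHP-1 (PTPN6) are phosphatases that end such signals, the first by removing a phosphate from the lipid made by PI 3-kinase, the second by removing phosphate from tyrosines. Inhibitory G proteins (GNAI) carry the signals of chemokine receptors, and phospholipase C beta (PLCB), activated by Gq and by the beta-gamma subunits of G proteins, cuts a membrane lipid into calcium-releasing and kinase-activating messengers. VAV1, INPP5D and PTPN6 are best known from blood cells, ARPC1B and GNAI2 are abundant in leukocytes but found widely, so that for them the name leukocyte gene marks the group only, and RAC1 is used by nearly every cell type.

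The exchange factor of blood cells rose in FCGS lesions and its broader relative fell. VAV1 measured 30.0, 49.6 and 49.3 FPKM in the lesions of Bart, Jerome and Sadie, against 8.42, 15.9 and 10.1 FPKM in their healthy mucosa. Every lesion lay above every healthy library, and the log2 difference per cat was 1.83 (Bart), 1.64 (Jerome) and 2.29 (Sadie), on average 1.92 ± 0.33 (SD, n = 3 cats) or 3.79-fold. VAV3, the member of the family found in epithelia as well as in lymphocytes, measured 0.959, 0.427 and 0.622 FPKM in lesions and 2.77, 2.85 and 2.35 FPKM in healthy mucosa. These are low levels throughout, and all 3 lesions lay under 1 FPKM. The log2 scale used here raises values under 1 FPKM to 1, so the mean VAV3 difference of -1.41 ± 0.15 (SD, n = 3 cats) understates the fall. For the same reason this SD leaves out the spread of VAV3 between lesions. The ratio of the means without that floor was 3.97-fold lower in lesions. With 0.1 FPKM added to every value in place of the floor, VAV3 fell by 1.90 on the log2 scale.

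RAC1, the GTPase on which VAV proteins act, also fell. It measured 147, 151 and 125 FPKM in the lesions of Bart, Jerome and Sadie, against 291, 284 and 280 FPKM in healthy mucosa. The healthy libraries differed little from each other (285 ± 5.68 FPKM, SD, n = 3), and all lay far above the lesions (141 ± 13.7 FPKM, SD, n = 3). RAC1 had a log2 difference of -1.02 ± 0.13 (SD, n = 3 cats). RAC2, the Rac protein of blood cells, carries no name here and was not analysed.

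**Figure D1:**
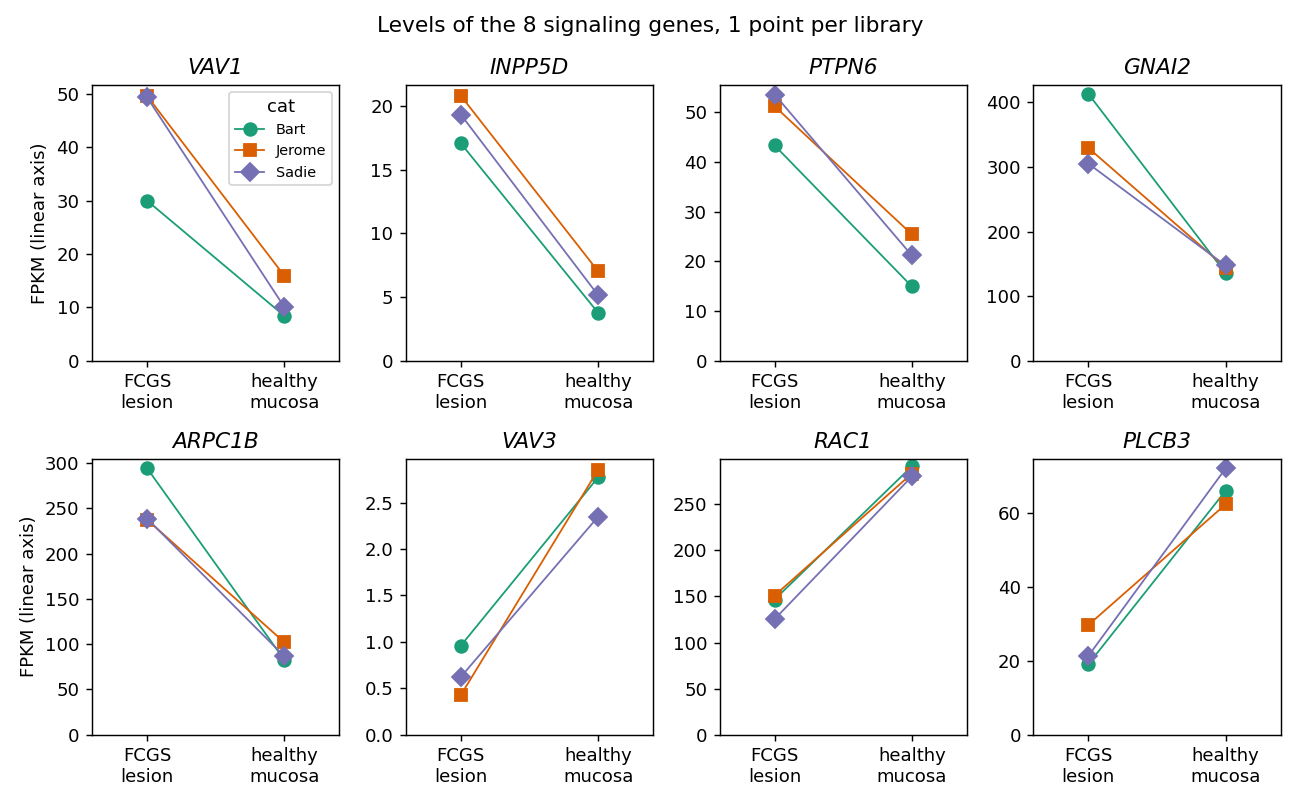
FPKM (vertical axes, linear, starting at 0) of the 8 genes in FCGS lesion and healthy mucosa (horizontal axes), with 1 point per library and a line joining the biopsies of a cat. The 5 leukocyte genes are higher in every lesion than in any healthy library, for example VAV1 at 30.0 to 49.6 against 8.42 to 15.9 FPKM, and VAV3, RAC1 and PLCB3 are lower, for example RAC1 at 125 to 151 against 280 to 291 FPKM.

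Both phosphatases rose, INPP5D more than PTPN6 in every cat. INPP5D measured 17.1, 20.8 and 19.3 FPKM in the lesions of Bart, Jerome and Sadie, against 3.78, 7.03 and 5.15 FPKM in healthy mucosa. This is a mean log2 difference of 1.88 ± 0.31 (SD, n = 3 cats), or 3.69-fold. PTPN6 measured 43.4, 51.3 and 53.6 FPKM in lesions and 15.0, 25.5 and 21.2 FPKM in healthy mucosa, a mean log2 difference of 1.29 ± 0.27 (SD, n = 3 cats), or 2.45-fold. Neither gene's groups overlapped, and PTPN6 stood above INPP5D in every library. Their broad paralogs, INPPL1 (SHIP2) and PTPN11 (SHP-2), carry no name here, so a paralog comparison was not possible for the phosphatases.

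The inhibitory G protein and the Arp2/3 subunit were the most abundant of the 5 leukocyte genes in both tissues. GNAI2 measured 413, 329 and 305 FPKM in the lesions of Bart, Jerome and Sadie, against 136, 144 and 148 FPKM in healthy mucosa (mean log2 difference 1.28 ± 0.29, SD, n = 3 cats). ARPC1B measured 294, 237 and 239 FPKM in lesions and 82.6, 102 and 86.5 FPKM in healthy mucosa (mean log2 difference 1.51 ± 0.31, SD, n = 3 cats). For both genes the lesion of Bart was the highest of the 6 libraries, whereas for VAV1, INPP5D and PTPN6 it was the lowest of the lesions.

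PLCB3, a phospholipase C of epithelia and many other tissues, fell to 19.1, 29.7 and 21.3 FPKM in the lesions of Bart, Jerome and Sadie, against 66.1, 62.5 and 72.2 FPKM in healthy mucosa. The mean log2 difference was -1.54 ± 0.41 (SD, n = 3 cats), or 2.91-fold lower. The fall was smallest in Jerome (log2 difference -1.07) and alike in Bart (-1.79) and Sadie (-1.76). Jerome also had the smallest rise of VAV1, INPP5D, PTPN6 and ARPC1B.

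In the fit across all 13327 identifiers that reached 1 FPKM in 3 or more libraries (limma, two-sided, Benjamini-Hochberg), all 8 genes passed at an adjusted p under 0.05, where 11.9% of all identifiers did (5.31% higher and 6.61% lower in lesions). With the cat as a block the same 8 passed, and 23.2% of all identifiers. Groups that do not overlap, which all 8 genes showed, were found for 38.6% of the identifiers (16.7% higher and 21.9% lower in lesions). Among identifiers that carry a name, and so differ at least 2-fold, 31.5% of the higher and 43.2% of the lower ones passed, and with the block 68.9% and 66.7%. Because the genes were chosen on this contrast, nothing is read from these counts. The calls depended on Jerome and Sadie more than on Bart, over all identifiers as for the 8 genes. Without the lesion of Sadie, the healthy mucosa of Jerome or of Sadie, or the cat Jerome or Sadie, limma called 0 of the 8. Of all identifiers it called 1, 132, 9, 0 and 0 in these fits, in that order. In each of these fits all 8 had an unadjusted p under 0.05, as did 2139 to 3276 identifiers. Without the lesion of Jerome limma called 4 of the 8 and 655 of all identifiers. Without the lesion of Bart or the cat Bart it called 8, and 1435 and 2136 of all identifiers. Without the healthy mucosa of Bart it called 7, and 898 of all identifiers. The direction of each gene stayed the same in all of these fits. It could not have changed, since the groups of all 8 do not overlap.

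Within each tissue the levels of the 8 genes spanned more than 2 orders of magnitude, and their order differed between the tissues. In lesions the means ran from GNAI2 (349 ± 56.6 FPKM, SD, n = 3) through ARPC1B (257 ± 32.4), RAC1 (141 ± 13.7), PTPN6 (49.4 ± 5.37), VAV1 (43.0 ± 11.2), PLCB3 (23.4 ± 5.60) and INPP5D (19.1 ± 1.88) to VAV3 (0.669 ± 0.269). In healthy mucosa RAC1 came first (285 ± 5.68), followed by GNAI2 (143 ± 6.13), ARPC1B (90.3 ± 10.2), PLCB3 (66.9 ± 4.91), PTPN6 (20.6 ± 5.28), VAV1 (11.5 ± 3.94), INPP5D (5.32 ± 1.64) and VAV3 (2.66 ± 0.271). RAC1 thus stood below GNAI2 and ARPC1B in lesions and above both in healthy mucosa, and PLCB3 stood below PTPN6 and VAV1 in lesions and above both in healthy mucosa. Neighbours in these orders did not overlap, except PTPN6 with VAV1 in both tissues and PLCB3 with INPP5D in lesions, although within each cat the first of these pairs was always the higher.

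Among the named paralogs of these families, the more abundant version differed between the tissues for ARPC1 but not for VAV1/VAV3, GNAI2/GNAI1, PLCB2/PLCB3 or RAC1/RAC3. ARPC1A and ARPC1B are alternative versions of the same Arp2/3 subunit. ARPC1A measured 74.9, 79.5 and 74.3 FPKM in the lesions of Bart, Jerome and Sadie, against 128, 161 and 207 FPKM in healthy mucosa. ARPC1B made up 79.7%, 74.9% and 76.2% of the ARPC1 total in lesions and 39.1%, 38.8% and 29.5% in healthy mucosa. ARPC1B was therefore the higher of the pair in 3 of 3 lesions and the lower in 3 of 3 healthy libraries, while the total of both was 1.30 times as high in lesions (333 ± 31.3 FPKM) as in healthy mucosa (256 ± 41.6 FPKM, SD, n = 3 each). On the log2 scale, with values under 1 FPKM set to 1, the ratio of ARPC1B to ARPC1A shifted by 2.60 ± 0.35 (SD, n = 3 cats). Such a ratio is taken inside a library, so it does not depend on how libraries were scaled against each other. Each paralog has a name only because it differed at least 2-fold between the tissues. A large shift of a pair with 1 gene higher and 1 lower therefore follows from that choice and is given as a description.

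VAV1 stood above VAV3 in both tissues, by 31.3, 116 and 79.3 times in the lesions of Bart, Jerome and Sadie and by 3.04, 5.58 and 4.29 times in their healthy mucosa (values without the floor). The log2 ratio, with values under 1 FPKM set to 1, shifted by 3.33 ± 0.19 (SD, n = 3 cats). This SD leaves out the spread of VAV3 between lesions, since all 3 were set to 1. With 0.1 FPKM added in place of the floor the shift was 3.81 ± 0.48 (SD, n = 3 cats). VAV2, the widely expressed member, did not go with VAV3. It measured 19.4, 17.7 and 26.1 FPKM in the lesions of Bart, Jerome and Sadie, against 11.4, 8.90 and 10.1 FPKM in healthy mucosa, and rose by a mean log2 difference of 1.05 ± 0.31 (SD, n = 3 cats). VAV1 made up 59.6%, 73.2% and 64.9% of the VAV total in lesions and 37.3%, 57.5% and 44.8% in healthy mucosa. VAV2 held most of the rest, and VAV3 at most 1.91% in lesions and 12.3% in healthy mucosa. In the healthy mucosa of Bart VAV2 was above VAV1, and in that of Sadie the levels were nearly equal (1.00-fold).

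GNAI2 dominated its pair in every library. GNAI1, a close relative that is less typical of leukocytes, measured 6.18, 2.44 and 1.77 FPKM in the lesions of Bart, Jerome and Sadie and 11.1, 7.01 and 6.71 FPKM in healthy mucosa, a log2 difference of -1.43 ± 0.55 (SD, n = 3 cats) that passed limma only with the cat as a block. GNAI2 made up 98.5% to 99.4% of the pair in lesions and 92.5% to 95.6% in healthy mucosa. GNAI3, another member of the family, carries no name here and is not part of these shares. The pair ratio shifted by 2.71 ± 0.26 on the log2 scale (SD, n = 3 cats), but the more abundant paralog was the same in both tissues.

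The phospholipase pair kept the opposite order. PLCB2, the version of blood cells, measured 6.19, 6.35 and 5.30 FPKM in the lesions of Bart, Jerome and Sadie, against 1.30, 3.50 and 1.88 FPKM in healthy mucosa, a log2 difference of 1.54 ± 0.70 (SD, n = 3 cats) that passed limma only with the block. PLCB3 nevertheless remained 3.09, 4.68 and 4.03 times above PLCB2 in lesions, against 50.9, 17.9 and 38.5 times in healthy mucosa. The total of both genes was 2.36 times lower in lesions (29.3 ± 5.88 FPKM) than in healthy mucosa (69.1 ± 4.32 FPKM, SD, n = 3 each). PLCB1 and PLCB4 carry no name here and are not part of this total. The pair ratio shifted by 3.08 ± 1.07 (SD, n = 3 cats), the widest spread between cats of the 6 ratios compared.

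Both named RAC genes were lower in lesions. RAC3 measured 3.25, 4.19 and 4.38 FPKM in the lesions of Bart, Jerome and Sadie, against 6.34, 8.15 and 14.2 FPKM in healthy mucosa, with a log2 difference of -1.21 ± 0.43 (SD, n = 3 cats) that passed only with the block. RAC1 made up 95.2% to 97.9% of the pair in all libraries, and the pair ratio shifted by 0.19 ± 0.31 (SD, n = 3 cats), within the spread between cats. The sources used here do not state how reads matching more than 1 paralog were assigned.

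**Figure D2:**
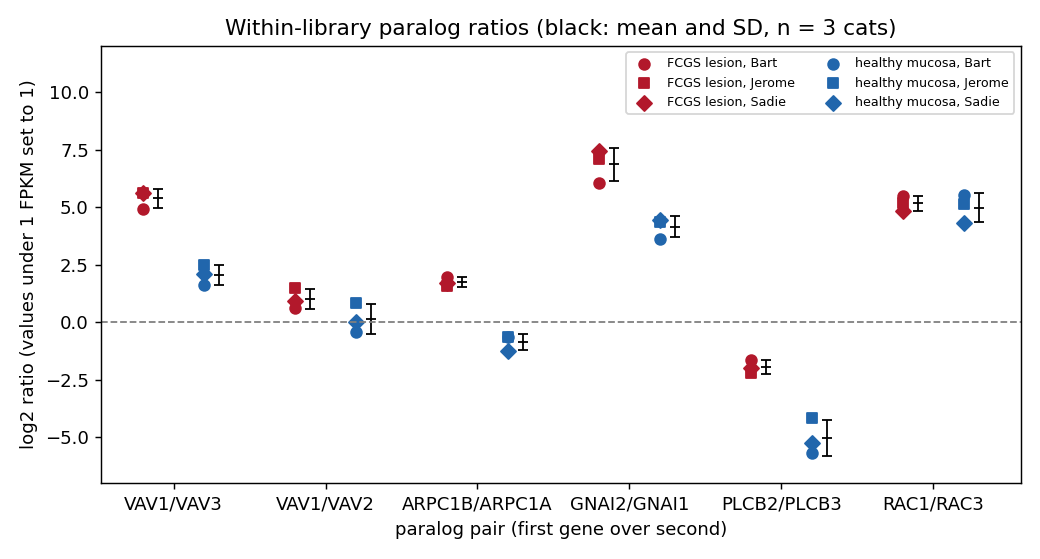
Log2 ratio of 2 paralogs within a library (vertical axis) for 6 pairs (horizontal axis), with lesions in red, healthy mucosa in blue, 1 marker shape per cat, and the mean with its SD over 3 cats in black. The dashed line marks equal levels: ARPC1B/ARPC1A lies above it in lesions and below it in healthy mucosa, VAV1/VAV3, GNAI2/GNAI1 and RAC1/RAC3 lie above it and PLCB2/PLCB3 below it in both tissues, and VAV1/VAV2 lies above it in lesions and on both sides of it in healthy mucosa.

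Further paralog pairs of the same machinery were read from a list of 27 pairs, in which both genes carried a name for 8. VAV1/VAV3, ARPC1B/ARPC1A, GNAI2/GNAI1 and PLCB2/PLCB3 are 4 of them. The other 4 were singled out after their values were seen. NCKAP1L and NCKAP1 are the leukocyte and the broad version of a WAVE complex subunit. NCKAP1L rose to 31.4, 36.0 and 34.6 FPKM in the lesions of Bart, Jerome and Sadie, against 3.97, 11.2 and 6.27 FPKM in healthy mucosa, while NCKAP1 measured 30.3, 11.1 and 9.52 FPKM in lesions and 44.0, 25.2 and 25.6 FPKM in healthy mucosa, with overlapping groups. As with ARPC1, the more abundant version differed, with NCKAP1L the higher in 3 of 3 lesions (by only 1.04 times in Bart) and the lower in 3 of 3 healthy libraries.

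WAS, the activator of Arp2/3 in blood cells that is mutated in Wiskott-Aldrich syndrome, and WASL, its broad relative N-WASP, showed the same exchange of order. WAS, which passed limma only with the block, measured 20.4, 36.5 and 35.9 FPKM in lesions and 3.38, 11.3 and 9.62 FPKM in healthy mucosa. WASL fell to 8.82, 6.64 and 5.27 FPKM in lesions, against 14.1, 14.2 and 14.7 FPKM in healthy mucosa. Among kinases, STK10, a kinase abundant in lymphocytes, rose to between 19.1 and 23.7 FPKM in lesions, against 4.96 to 6.94 FPKM in healthy mucosa, and its paralog SLK fell to 7.96 to 10.5 FPKM in lesions, against 28.6 to 40.8 FPKM in healthy mucosa. The STK10/SLK ratio shifted by 3.68 ± 0.44 on the log2 scale (SD, n = 3 cats) and also crossed equality in every cat.

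PRKCQ, a protein kinase C known from T cells, stayed below PRKCZ, an atypical protein kinase C of epithelial polarity, in all 6 libraries. In both tissues its order of cats was that of the skeletal muscle marker CKM and also of the T and NK cell markers CD8A and NKG7. Not every marker of either list had this order, and the part of muscle in the level of PRKCQ was not tested. PRKCQ measured 2.22, 5.94 and 5.43 FPKM in lesions and 0.464, 1.37 and 1.74 FPKM in healthy mucosa. PRKCZ measured 3.39, 19.9 and 16.5 FPKM in lesions and 25.6, 51.1 and 58.9 FPKM in healthy mucosa. Of the 8 pairs, then, the more abundant version differed between the tissues in 4 (ARPC1, NCKAP1, WAS and STK10) and was the same in 4. Outside the 8 genes, 17 leukocyte genes of the list had a name, of which 17 were higher and 11 rose, and 6 broader genes had a name, of which 6 were lower and 3 fell, where 31.5% of the higher and 43.2% of the lower named genes passed (5.31% and 6.61% of all identifiers). VAV2, the widely expressed relative of VAV1, is not among these broader genes or the 8 pairs, and it rose (mean log2 difference 1.05). The list was written with earlier results of these data known. A gene has a name only if it differed 2-fold or more, so a broader gene that differed less would not be seen.

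**Figure D3:**
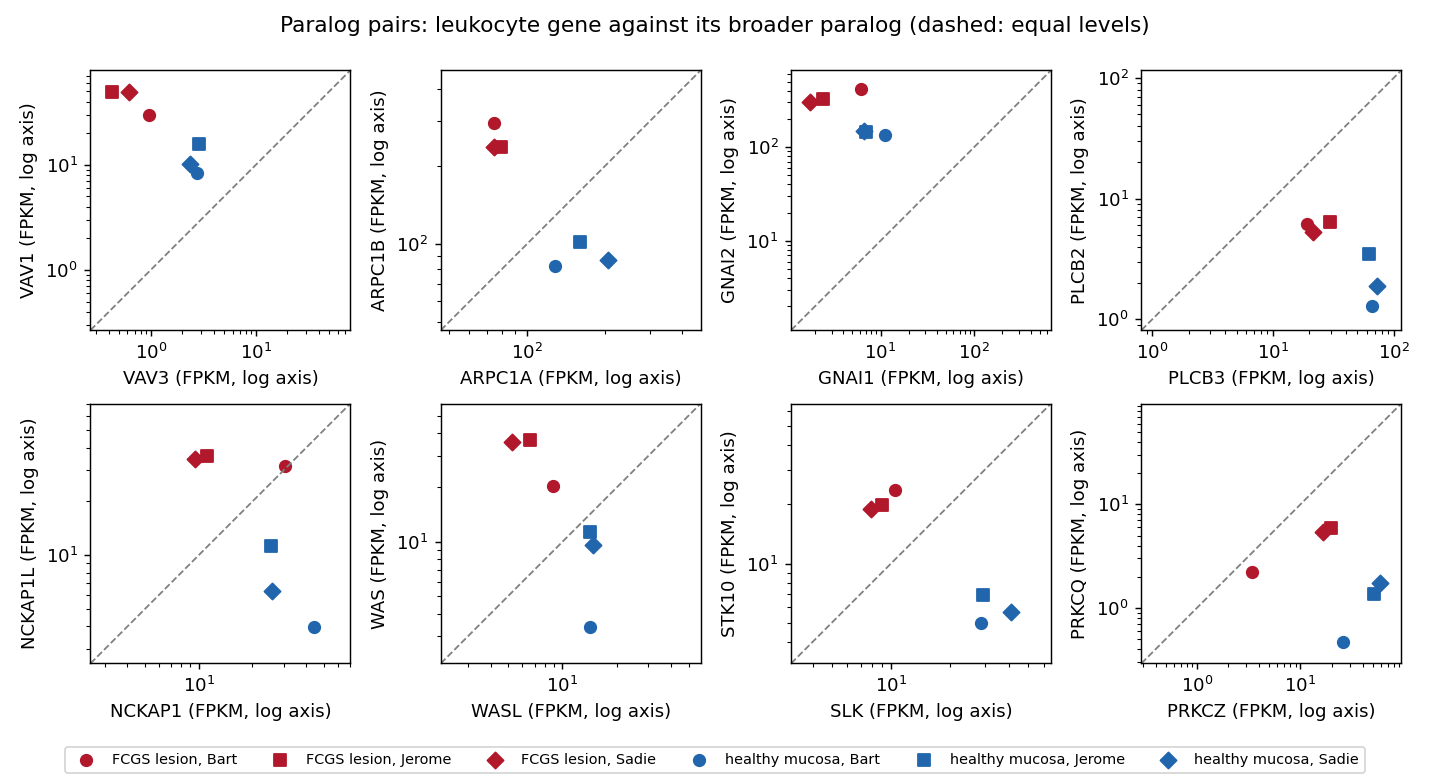
FPKM of a leukocyte gene (vertical axes, log) against its broader paralog (horizontal axes, log) in 8 pairs, with lesions in red, healthy mucosa in blue and 1 marker shape per cat. On the dashed line both levels are equal: red points lie above it and blue ones below it for ARPC1B/ARPC1A, NCKAP1L/NCKAP1, WAS/WASL and STK10/SLK, whereas all points lie on the same side for VAV1/VAV3, GNAI2/GNAI1, PLCB2/PLCB3 and PRKCQ/PRKCZ.

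The leukocyte genes were next set beside PTPRC (CD45), the surface phosphatase of all leukocytes. PTPRC measured 18.2, 16.6 and 17.8 FPKM in the lesions of Bart, Jerome and Sadie, against 2.58, 6.52 and 4.48 FPKM in healthy mucosa, a log2 difference of 2.05 ± 0.74 (SD, n = 3 cats). In bulk tissue fewer cells of a type and less RNA per cell cannot be told apart. Relative to PTPRC, VAV1 differed by -0.13 ± 0.74 and INPP5D by -0.17 ± 0.44 on the log2 scale (SD, n = 3 cats), both less than the spread between cats and both without a common direction. PTPN6 (-0.76 ± 0.48), GNAI2 (-0.77 ± 0.55) and ARPC1B (-0.55 ± 0.43) were lower relative to PTPRC in lesions in 3 of 3 cats. The broader genes were far lower on this scale, with RAC1 at -3.07 ± 0.78, VAV3 at -3.46 ± 0.74 and PLCB3 at -3.59 ± 1.10.

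**Figure D4:**
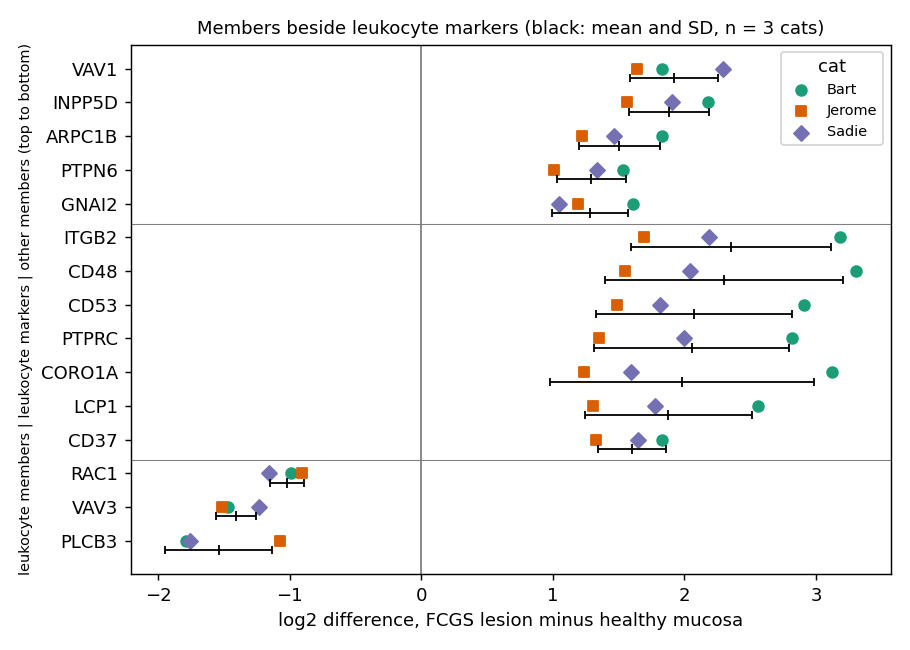
Lesion minus healthy difference in log2 FPKM (horizontal axis) of the 5 leukocyte genes, 7 leukocyte markers and the 3 broader genes (vertical axis). Each cat has a point of its own, and black bars give mean and SD over 3 cats. VAV1 and INPP5D lie among the markers, ARPC1B (1.51), PTPN6 (1.29) and GNAI2 (1.28) lie lower, and for all 7 markers Bart has the largest and Jerome the smallest difference.

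The order of the cats inside a tissue was not used to choose the genes. In healthy mucosa VAV1, INPP5D, PTPN6 and ARPC1B were lowest in Bart, intermediate in Sadie and highest in Jerome, an order that 16.6% of all identifiers had. All 7 named leukocyte markers had it too, as did 8 of 10 myeloid, 6 of 10 T and NK cell and 6 of 9 B and plasma cell markers. GNAI2 was lowest in Bart as well, as were 43.5% of all identifiers, but its healthy levels lay within 136 to 148 FPKM. None of the 3 broader genes had this order. The summed FPKM of the healthy libraries did have it, at 1429495 (Bart), 1754492 (Sadie) and 1903773 (Jerome). The part of library scaling in the order of the cats was not tested.

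In lesions the 5 leukocyte genes divided. VAV1, INPP5D and PTPN6 were lowest in Bart, as were 44.4% of all identifiers, all 9 named B and plasma cell markers, 9 of 10 T and NK cell markers and all 10 skeletal muscle markers. The 9 B and plasma cell markers include SDC1, the most abundant of them and the only one lower in lesions. Its lesion mean was 234 FPKM and its healthy mean 644 FPKM, whereas the other 8 were higher in lesions. The 7 leukocyte markers divided too, with 4 lowest and 2 highest in Bart. CD3G, a chain of the T cell receptor complex, measured 56.9, 105 and 222 FPKM in the lesions of Bart, Jerome and Sadie, and CD79A, a chain of the B cell receptor, 151, 447 and 1114 FPKM. GNAI2 and ARPC1B were highest in Bart, as were 41.1% of all identifiers, all 11 named endothelial and all 4 named fibroblast markers, and 5 of 10 myeloid markers, while 4 of the 10 were lowest in Bart. VWF, the clotting factor of endothelium, measured 592, 249 and 190 FPKM in the same lesions and TYROBP, a signaling adaptor of myeloid and NK cells, 602, 516 and 351 FPKM. Among the lesions, summed FPKM was also lowest in Bart, at 1382122 against 1673795 (Sadie) and 1767520 (Jerome). The part of library scaling and of these other cell types in the levels of the 8 genes was not tested.

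Of 1921 named genes outside the 8, those with the profile most like the mean of the 5 leukocyte genes over the 6 libraries were GLA, JAK3, MERTK, BATF and SH2D3C (Pearson r = 0.992 to 0.996). JAK3, a kinase of the cytokine receptors of lymphocytes, measured 30.1, 40.5 and 36.3 FPKM in lesions and 5.28, 10.8 and 6.29 FPKM in healthy mucosa. BATF is a transcription factor of activated lymphocytes, MERTK a receptor of macrophages for dying cells, GLA a lysosomal galactosidase. Those most like the mean of the 3 broader genes were OAT, FRMD8, GLTP, FARP2 and SLC25A13 (r = 0.994 to 0.998). GLTP is a glycolipid transfer protein and OAT a mitochondrial enzyme of ornithine metabolism. FARP2 fell to 3.74, 5.52 and 4.14 FPKM in lesions, against 18.1, 20.5 and 18.8 FPKM in healthy mucosa. All named genes differ at least 2-fold between the tissues, so high correlations over 6 libraries are a description only.

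The other genes of these pathways are read beside all named genes, of which 1292 were higher and 637 lower in lesions, and of which 31.5% of the higher and 43.2% of the lower ones passed (5.31% and 6.61% of all identifiers). Among the genes with a name outside the 8, 10 of 13 antigen receptor kinases and adaptors were higher and 3 lower, and 6 rose and 2 fell. NCK2, an adaptor that links tyrosine kinases to actin and is found in most cells, fell to 37.8, 30.7 and 23.5 FPKM in lesions, against 71.3, 79.7 and 104 FPKM in healthy mucosa. BLNK, the adaptor of B cell receptor signaling, measured 16.7, 54.3 and 70.0 FPKM in lesions and 73.6, 99.5 and 114 FPKM in healthy mucosa, and LAT, its counterpart in T cells, 32.0, 55.0 and 44.4 FPKM in lesions against 9.10, 26.3 and 20.2 FPKM in healthy mucosa. BLNK was thus lower where most other genes of lymphocyte signaling were higher, and it did not pass with or without the block.

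Of the receptors and adaptors that recruit SHP-1 or SHIP1, 4 of 8 with a name rose and 0 fell, all 8 being higher in lesions and 7 passing with the block. PECAM1, found on endothelium and leukocytes, rose to 320, 111 and 172 FPKM in lesions, against 62.5, 36.6 and 29.7 FPKM in healthy mucosa. CD5, an inhibitory receptor of T cells, measured 14.0, 32.5 and 17.0 FPKM in lesions and 5.13, 10.3 and 7.27 FPKM in healthy mucosa. PDCD1 (PD-1) measured 9.69, 24.3 and 16.4 FPKM in lesions and 2.96, 7.68 and 3.23 FPKM in healthy mucosa.

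Among other exchange factors for Rac and Cdc42, 4 of 12 with a name rose and 1, FARP2, fell. PREX1, a Rac exchange factor activated by G protein beta-gamma subunits and known from neutrophils, rose to 45.9, 36.0 and 35.6 FPKM in lesions, against 7.27, 11.7 and 6.85 FPKM in healthy mucosa, and was close to VAV1 in level. FARP1 measured 42.5, 15.0 and 20.1 FPKM in lesions and 15.7, 8.69 and 8.42 FPKM in healthy mucosa, with overlapping groups. Of Rac effectors and actin nucleation genes, 8 of 15 rose and 3 fell, with 10 higher and 5 lower in all, a balance near that of all named genes. CYBA, a subunit of the phagocyte oxidase that Rac switches on, rose to 282, 522 and 600 FPKM in lesions, against 78.7, 196 and 115 FPKM in healthy mucosa.

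Of G protein and phospholipase C beta signaling, 9 of 23 with a name rose and 1 fell, with 20 higher and 3 lower in all. Of the gamma subunits with a name in this list, GNG12 was lower in lesions and the others, GNG11, GNG3, GNG7, GNG8 and GNGT2, were higher. GNG11, a subunit abundant in endothelium and platelets, rose to 1550, 871 and 596 FPKM in the lesions of Bart, Jerome and Sadie, against 254, 216 and 252 FPKM in healthy mucosa. GNG12, a broadly used one, fell to 184, 117 and 67.9 FPKM in lesions, against 630, 340 and 344 FPKM in healthy mucosa. In PI 3-kinase signaling 3 of 7 rose and 2 fell, with 5 higher and 2 lower in all, again near the balance of all named genes. PIK3AP1, the B cell adaptor of PI 3-kinase, rose to 13.3, 13.8 and 10.6 FPKM in lesions, against 2.15, 4.39 and 2.10 FPKM in healthy mucosa. PIK3CG, the catalytic subunit that beta-gamma subunits activate in leukocytes, rose to 9.74, 9.76 and 17.3 FPKM in lesions, against 1.15, 3.11 and 1.45 FPKM in healthy mucosa.

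**Figure D5:**
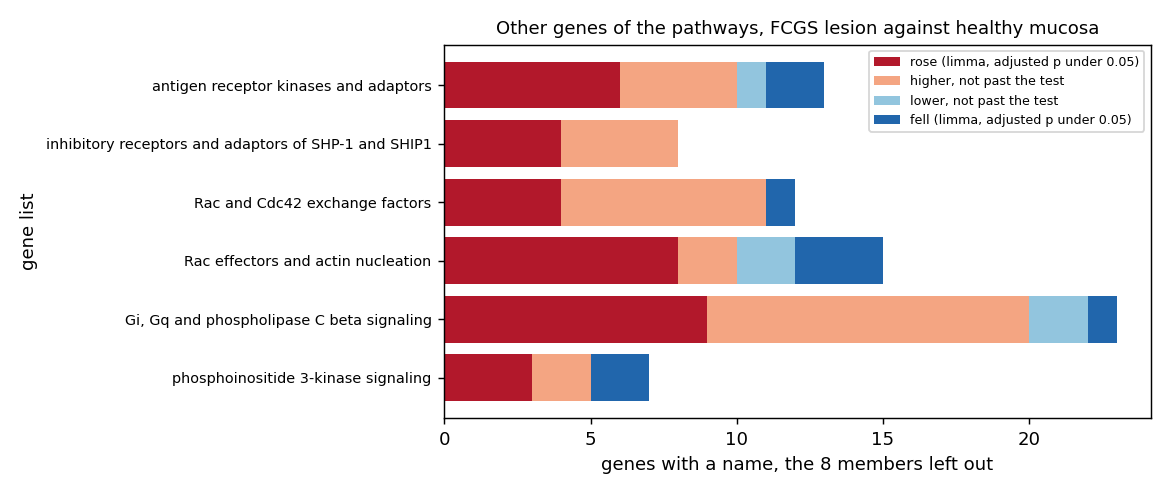
Number of genes with a name (horizontal axis) in 6 lists of related genes (vertical axis), the 8 genes of the report left out, split by direction and by the limma call. Higher genes (red shades) outnumber lower ones (blue shades) in each list, from 8 against 0 among receptors and adaptors of SHP-1 and SHIP1 to 10 against 5 among Rac effectors.

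The named genes had median log2 differences of 1.61 (higher) and -1.46 (lower), against a median of -0.07 over all 13327 identifiers. Names stop at 5.20-fold for genes lower in lesions, because rows of the study's table with stronger falls were not used here, so the balance of each list leans toward higher genes. No list was tested as a set.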

How the data were processed

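The authors deposited 1 table of FPKM values per library, covering 21529 Ensembl identifiers. HISAT, Cufflinks and Cuffnorm, after bcl2fastq, are listed in the submitters' processing notes. Their versions, the build and the annotation were not given in the sources used here, and the labels and the paper differ on single or paired reads. FPKM are scaled for length and library size, so no count test was used, and values near 0 carry few reads. Identifiers matched no entry of the RefSeq gene table; names came from the 1981 rows of the study's table at hand, whose values per tissue, floored at 1 FPKM, each matched exactly 1 identifier to 5 significant digits. Names were given to 1929 identifiers with at least 3 values above the floor.

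The deposited values were converted to log2 after those under 1 FPKM had been set to 1. The 13327 identifiers reaching 1 FPKM in 3 or more libraries were fitted with limma 3.58.1 in R 4.3.3 (tissue as the only term, mean-variance trend, Benjamini-Hochberg adjustment), and the step was tested on simulated data. Other steps ran in Python 3.11.15 with numpy 2.4.6, pandas 2.3.3 and, for plots, matplotlib 3.10.9. Lesion and healthy biopsies are paired because the labels give the same animal; deviations from the tissue means correlated at 0.49 (Bart), 0.20 (Jerome) and 0.41 (Sadie) within a cat and at -0.44 to 0.27 between cats, the lesion of Jerome more with the healthy mucosa of Sadie (0.27) than with its own. Alternatives were other pseudocounts, no filter, quantile normalization, the cat as a block, and leaving out each library or cat.

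Named are the 8 genes, the named paralogs of their families, up to 3 genes with the highest mean FPKM of each list, and the 5 genes most like each mean profile. PTPRC, GNG3, GNG7, GNG8, GNGT2, NCKAP1L, NCKAP1, WAS, WASL, STK10, SLK, PRKCQ and PRKCZ were added after their values were seen. Genes and lists were chosen with earlier results of these data known. No sequences were used here. P-values and SDs measure the spread between 3 cats, without the spread among values that were raised to 1 FPKM.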

Additional observations from a re-analysis of the deposited data

How the results depend on the processing

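No gene of the 8 changed direction under any alternative tried, from another log scale to leaving out a library or cat. As their groups do not overlap, neither another log scale nor leaving out a library or cat could reverse a direction. With all libraries kept, 38 of 40 results of single genes stayed on their side of the limma threshold, and with a library or cat left out 27 of 72 did. Over all identifiers limma called 1588, against 526 with no filter on low values (4163 at an unadjusted p under 0.05) and 3098 with the cat as a replicate block. Leaving out a library or a cat gave 0 to 2136 calls over all identifiers and 0 to 8 over the 8 genes (8 at an unadjusted p under 0.05 in each of these fits). With no filter VAV1 and PTPN6 were the genes not called. The paired fit changed no call of the 8 and added calls for GNAI1, RAC3 and PLCB2.

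The VAV1/VAV3 shift of 3.33 on the log2 scale became 3.81 with 0.1 FPKM added and 2.97 with 1 FPKM added, since VAV3 lay below 1 FPKM in every lesion. The GNAI2/GNAI1 shift of 2.71 became 2.42 with 1 FPKM added. The other 27 of 30 pair results moved by less than 1 SD between cats. The reads in each library are not in the tables, so the precision of low values such as VAV3 in lesions cannot be given.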
